A study of Mus musculus with 6 samples.

Results

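The genes that encode the subunits of the 5 oxidative phosphorylation complexes were examined in primary mouse macrophages that had been differentiated in culture from bone marrow. They were taken by symbol from the protein-coding genes of GENCODE M21: the Nduf, Sdh, Uqcr, Cox4 to Cox8 and Atp5 families of the nuclear genome, with the Ndufaf assembly factors left out, and the Nd, Co, Cytb and Atp genes of the mitochondrial genome. The rule found 99 of the 55421 genes of the deposited table, 86 nuclear and 13 mitochondrial. They comprised 36 nuclear and 7 mitochondrial genes of complex I, 4 nuclear genes of complex II, 8 nuclear and 1 mitochondrial gene of complex III, 20 nuclear and 3 mitochondrial genes of complex IV, and 18 nuclear and 2 mitochondrial genes of complex V. Ndufa4 and its paralog Ndufa4l2 were placed with complex IV, because the Ndufa4 protein is now known as a subunit of that complex.

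RNA sequencing had been done on 3 knockout (KO) and 3 wild type (WT) wells of these macrophages. The KO cells carried the alleles written in the labels as Tmem175flox/flox Lyz2-Cre+/- and are listed with the genotype Tmem175-/-, and the WT cells are labelled WT with no further allele. Cre is driven here from the Lyz2 locus, which is active in myeloid cells, and no group with Cre alone or with floxed alleles alone was analysed here, so loss of Tmem175 and presence of the Cre allele cannot be told apart. The wells are not stated to come from separate animals, so a p-value here reflects well-to-well spread alone, part of which may be technical. TMEM175 forms an ion channel, for potassium and protons, in the membranes of lysosomes and endosomes.

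Oxidative phosphorylation takes place in the inner mitochondrial membrane. Complexes I and II pass electrons from NADH and succinate to ubiquinone, complex III passes them on to cytochrome c, complex IV passes them to oxygen, and complex V makes ATP from the proton gradient that complexes I, III and IV build. Most subunits are encoded in the nucleus and imported, while a small set of hydrophobic core subunits is encoded in the mitochondrial DNA and transcribed there as long precursors from both strands; complex II is encoded in the nucleus alone. In macrophages this pathway is known for its change with activation state, since inflammatory activation shifts energy supply towards glycolysis.

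Several of the mitochondrial genes have near-identical copies in the nuclear genome. Whether these copies altered the counts of the mitochondrial genes they match was not tested. An array of 7 annotated unprocessed pseudogenes lies on the minus strand of chr1:24611535-24616197 (GRCm38, GENCODE M21). In ascending order its members correspond to mt-Nd4 (Gm28439), mt-Nd4l (Gm10222), mt-Nd3 (Gm28438), mt-Co3 (Gm28437), mt-Atp6 (Gm10925), mt-Co2 (Gm28661) and mt-Co1 (Gm29216). The 2 pairs below show an inner copy and the end of the array. Each sequence is a window of 90 bases of GRCm38 on the strand of the gene; mt-Co2 is from chrM:7308-7397 and Gm28661 from chr1:24615181-24615270, and mt-Co1 is from chrM:6381-6470 and Gm29216 from chr1:24616108-24616197. Capitals mark the bases that differ within a pair, and the mt-Co2 pair has none.
mt-Co2: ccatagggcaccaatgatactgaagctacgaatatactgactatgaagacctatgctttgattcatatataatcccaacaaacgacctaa
Gm28661: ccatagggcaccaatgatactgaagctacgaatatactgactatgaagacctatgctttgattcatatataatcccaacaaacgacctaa
mt-Co1: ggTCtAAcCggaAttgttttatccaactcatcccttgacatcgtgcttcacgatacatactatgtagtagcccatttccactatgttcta
Gm29216: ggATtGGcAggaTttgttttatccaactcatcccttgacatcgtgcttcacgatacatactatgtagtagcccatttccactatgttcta
Over the compared bases of mt-Co2, 681 of 681 were identical to Gm28661. In the same way 783 of 783 bases of mt-Co3, 678 of 678 of mt-Atp6, 294 of 294 of mt-Nd4l and 876 of 876 compared bases of mt-Nd4 were identical to their copies. The mt-Nd3 pair matched at 344 of 345 bases, with the single substitution T3C. The mt-Co1 copy covers positions 1054 to 1545 of the gene and matched at 486 of 492 bases; its 6 substitutions, T1056A, C1057T, A1059G, A1060G, C1062A and A1066T, all stand at its outer end. Positions are counted from 1 at the 5′ end of the mitochondrial gene, with the mitochondrial base before the number and the base of the copy after it.

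The nuclear genes are known to share promoter elements bound by NRF-1, by ETS family factors such as GABP (also called NRF-2) and by YY1. RefSeq promoter windows of build GRCm38.p6, which run from 250 bases before to 50 bases after a gene's start, were matched for 69 of the 85 nuclear symbols. The searched letters were GCGCANGC for NRF-1, CCGGAAG for the ETS family and AAGATGGC for YY1, on both strands. The NRF-1 core was found in 24 of the 69 windows (34.8%), against 22.1% of the 9941 genes with a window that were tested for expression here and 11.2% of all 27025 genes with a window. The ETS core was found in 16 of 69 (23.2%), against 20.5% of the tested genes and 9.93% of all genes, so its share among the subunit genes was close to that among expressed genes. The YY1 core was found in 10 of 69 (14.5%), against 5.39% and 3.19%. Any of the 3 was found in 40 of 69 windows (58.0%), against 40.5% and 21.1%. By complex, the NRF-1 core was present in 9 of 32 windows of complex I, 3 of 3 of complex II, 2 of 5 of complex III, 1 of 14 of complex IV and 9 of 15 of complex V. The YY1 core was present in 7 windows of complex I and 3 of complex V, and in none of the 22 windows of the other complexes.

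The promoter windows of 4 genes are shown because their values are described below: Uqcr11 and Ndufa1, the subunit genes with the smallest p-values between genotypes, Sdhb, the iron-sulfur subunit of complex II, and Cox8a, which had the highest level among the nuclear genes by summed exon length. Uqcr11 lies at chr10:80406772-80407071 on the minus strand, Ndufa1 at chrX:37191189-37191488 on the minus strand, Sdhb at chr4:140961021-140961320 on the plus strand and Cox8a at chr19:7217567-7217866 on the minus strand. Capitals mark matches to the searched letters on either strand.
Uqcr11: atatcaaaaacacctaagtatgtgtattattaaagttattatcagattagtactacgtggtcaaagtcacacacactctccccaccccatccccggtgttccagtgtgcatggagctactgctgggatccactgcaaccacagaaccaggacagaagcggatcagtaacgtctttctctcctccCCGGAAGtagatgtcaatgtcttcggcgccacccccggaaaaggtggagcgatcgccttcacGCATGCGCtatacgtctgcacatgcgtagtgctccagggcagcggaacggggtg
Ndufa1: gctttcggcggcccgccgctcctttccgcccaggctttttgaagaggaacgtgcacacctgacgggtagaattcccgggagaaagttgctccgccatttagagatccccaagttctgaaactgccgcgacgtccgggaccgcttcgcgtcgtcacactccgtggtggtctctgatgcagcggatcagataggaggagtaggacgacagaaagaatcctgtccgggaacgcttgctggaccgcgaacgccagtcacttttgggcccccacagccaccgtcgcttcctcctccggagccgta
Sdhb: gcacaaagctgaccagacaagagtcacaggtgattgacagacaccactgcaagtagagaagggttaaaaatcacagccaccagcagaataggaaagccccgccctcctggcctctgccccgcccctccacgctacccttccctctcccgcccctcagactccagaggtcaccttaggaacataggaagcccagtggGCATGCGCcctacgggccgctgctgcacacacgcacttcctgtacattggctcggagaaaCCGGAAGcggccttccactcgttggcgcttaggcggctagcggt
Cox8a: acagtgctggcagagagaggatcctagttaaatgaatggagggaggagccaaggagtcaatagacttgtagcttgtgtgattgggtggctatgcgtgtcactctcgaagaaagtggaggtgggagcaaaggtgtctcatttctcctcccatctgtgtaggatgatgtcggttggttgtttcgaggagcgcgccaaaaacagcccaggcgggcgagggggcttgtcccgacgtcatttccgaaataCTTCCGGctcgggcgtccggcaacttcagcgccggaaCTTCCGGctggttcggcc
The Uqcr11 window holds an ETS core that begins at -66 from the start and an NRF-1 core at -4. The Sdhb window holds an NRF-1 core at -54 and an ETS core at 7. The Cox8a window holds 2 ETS cores, at -5 and 33, and the Ndufa1 window holds no match to these letters. That Ndufa1 window, set on a RefSeq start, lies wholly upstream of the GENCODE start of the gene at chrX:37191163. The bases at the GENCODE start of Ndufa1 were therefore not searched. A match is a description of the letters and was not tested as a binding site.

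The deposited values are raw read counts per gene. Total counts were 31542741, 29118452 and 25979430 in the KO libraries and 24179548, 24547091 and 25916709 in the WT libraries. Levels between genes are given per length as RPKM, here CPM, the count relative to the TMM-scaled library total, divided by the summed exon length of the gene in kilobases. A filter on low counts kept 13588 genes for the test, among them 93 of the subunit genes, 80 nuclear and 13 mitochondrial. The 6 that did not pass were Cox4i2, Ndufa4l2, Cox8b, Cox8c, Cox7b2 and a second gene identifier for Atp5o, a read-through annotation that overlaps Donson and had a count of 0 in every library. The targeted gene was lower in the KO libraries, with 13.2 CPM for Tmem175 in KO cells against 33.2 CPM in WT cells, a log2 fold change of -1.33 ± 0.07 (SE; edgeR adjusted p = 6.01e-05). Lyz2, which carries the Cre allele, had 24326 CPM in KO cells against 45178 CPM in WT cells (log2 fold change -0.89 ± 0.08, adjusted p = 0.00415). All 8 macrophage markers passed the filter and none was called; their summed share of counts was 0.926% to 1.02% in KO libraries and 0.909% to 0.996% in WT libraries.

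Together the subunit genes took 1.80% to 1.89% of all counts in the KO libraries and 1.77% to 1.80% in the WT libraries. The nuclear members held 0.703%, 0.740% and 0.744% of the counts in the 3 KO libraries and 0.685%, 0.693% and 0.710% in the 3 WT libraries. The mitochondrial members held 1.14%, 1.06% and 1.14% in the KO libraries and 1.08%, 1.11% and 1.07% in the WT libraries. These shares are of the raw totals; on TMM-scaled CPM the nuclear sums were 7032, 7177 and 7355 in KO libraries and 6914, 6990 and 7316 in WT libraries, and the groups overlapped. For each mitochondrial read counted there were 0.619 to 0.697 nuclear reads in KO libraries and 0.627 to 0.665 in WT libraries. No annotated gene matched mt-Nd1, mt-Nd2, mt-Nd5, mt-Nd6 and mt-Cytb. For each read of these 5 genes there were 1.96 to 2.30 nuclear reads in KO libraries and 1.92 to 2.24 in WT libraries. Most of the mitochondrial reads counted came from mt-Co1, the catalytic subunit of complex IV. It alone held 63.2% to 65.4% of them in KO libraries and 62.4% to 66.2% in WT libraries. The mitochondrial total, and shares and ratios based on it, depend on how reads shared with the nuclear copies were counted, which is not given.

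**Figure D1:**
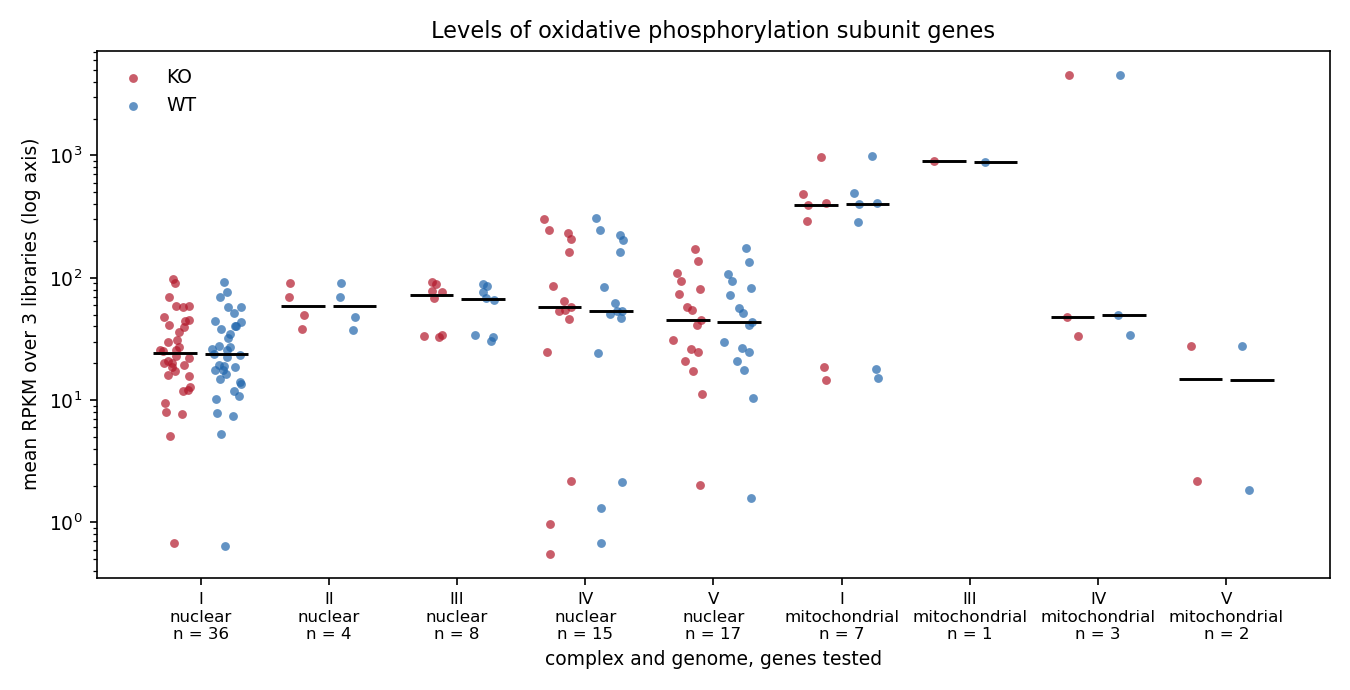
Mean RPKM over 3 libraries (log axis) of the 93 subunit genes tested, by complex and genome, with KO points left of WT points and a bar at the median of each group. Nuclear genes of complex I had the lowest nuclear median, at 24.2 RPKM in KO cells and 23.8 in WT cells, and mt-Co1 stood above every other gene.

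Among the nuclear genes, those of complex I had the lowest median level in both genotypes. The median of the tested genes was 24.2 RPKM in KO cells and 23.8 RPKM in WT cells for complex I, and 59.3 RPKM in KO cells and 58.6 RPKM in WT cells for complex II. It was 72.8 RPKM in KO cells and 66.9 RPKM in WT cells for complex III, 57.8 RPKM in KO cells and 54.0 RPKM in WT cells for complex IV, and 44.9 RPKM in KO cells and 43.9 RPKM in WT cells for complex V. The order depends on the length used. With the length of the principal transcript, an alternative added after the data had been seen, complex I was again lowest, at 40.9 RPKM in KO cells and 39.6 in WT cells, but complex IV was then highest, at 147 RPKM in KO cells and 140 in WT cells. Ranks of genes within a complex are by summed exon length unless stated, and they depend on the length too: by principal transcript length Sdha led complex II, while Uqcrh led the nuclear genes of complex III by both. No test was made between complexes, whose genes differ in length, isoforms and matching pseudogenes.

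Complex I oxidises NADH in a matrix arm of core subunits that hold the flavin and the iron-sulfur clusters. Ndufs8 and Ndufs7, which carry the last clusters before the quinone, averaged 36.2 ± 1.94 and 25.3 ± 0.317 RPKM in KO cells and 35.0 ± 2.06 and 24 ± 1.70 RPKM in WT cells (SD, n = 3 each). Ndufv1 and Ndufv2, the flavin-binding subunit and its partner, averaged 19.5 ± 0.597 and 27.0 ± 2.16 RPKM in KO cells and 18.7 ± 1.03 and 27.4 ± 1.52 RPKM in WT cells. The largest core subunit gene, Ndufs1, had the lowest level of the core subunits described here, at 7.74 ± 0.154 RPKM in KO cells and 7.43 ± 0.329 RPKM in WT cells. All of these core genes had overlapping groups. Ndufs3, another core subunit, averaged 21.0 ± 1.37 RPKM in KO cells and 19.4 ± 1.71 RPKM in WT cells, but 84.1% of its transcript is matched by other annotated genes at the identity searched. The pseudogene Gm12251, which matches 75.7% of it, had 0 counts in every library.

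The 4 highest nuclear genes of complex I were accessory subunits. Ndufa2 averaged 96.9 ± 1.33 RPKM in KO cells and 92.8 ± 3.28 RPKM in WT cells, and Ndufa1 averaged 91.0 ± 4.96 RPKM in KO cells and 76.8 ± 3.87 RPKM in WT cells. Ndufb11 averaged 70.3 ± 2.51 RPKM in KO cells and 69.8 ± 5.61 RPKM in WT cells, and Ndufc2 59.3 ± 2.55 RPKM in KO cells and 57.4 ± 4.80 RPKM in WT cells. At the other end stood Ndufb2, with 0.673 ± 0.0352 RPKM in KO cells and 0.642 ± 0.0419 RPKM in WT cells, from 85 to 125 counts per library. Ndufb2 shares exon bases with genes on both strands, among them Gm42420 on its own strand, and how reads in shared bases were counted is not given.

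Complex II links the pathway to the citric acid cycle. Its membrane anchor Sdhd had 86.6, 92.7 and 94.7 RPKM in KO libraries and 85.7, 90.2 and 96.4 RPKM in WT libraries. The flavoprotein Sdha averaged 69.2 ± 2.06 RPKM in KO cells and 69.6 ± 2.09 RPKM in WT cells, the iron-sulfur subunit Sdhb 49.4 ± 2.04 RPKM in KO cells and 47.7 ± 1.67 RPKM in WT cells, and the other anchor Sdhc 38.3 ± 1.11 RPKM in KO cells and 37.1 ± 1.07 RPKM in WT cells. The genotypes overlapped for each of the 4 genes.

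Among the nuclear genes of complex III, Uqcrh, the hinge protein near cytochrome c, was highest at 91.6 ± 5.97 RPKM in KO cells and 89.8 ± 2.79 RPKM in WT cells. Uqcr10 followed with 88.2 ± 2.46 RPKM in KO cells and 85.6 ± 5.14 RPKM in WT cells, then Uqcrfs1, the Rieske iron-sulfur protein, with 78.0 ± 3.04 RPKM in KO cells and 76.5 ± 5.21 RPKM in WT cells. The core proteins Uqcrc1 and Uqcrc2 averaged 33.3 ± 1.09 and 34.2 ± 2.25 RPKM in KO cells, against 34.2 ± 0.693 and 32.8 ± 0.755 RPKM in WT cells. Cyc1, the cytochrome c1 gene that the symbol rule does not take, had 62.1 ± 2.66 CPM in KO cells and 61.3 ± 1.36 CPM in WT cells, and Cycs, its substrate cytochrome c, had 48.1 ± 1.14 CPM in KO cells and 49.9 ± 3.47 CPM in WT cells. Both lay within the spread of their libraries.

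Complex IV held the highest nuclear genes, led by Cox8a by summed exon length and by Cox4i1 by principal transcript length. Cox8a had 290, 302 and 323 RPKM in KO libraries and 293, 305 and 321 RPKM in WT libraries. Cox4i1, the subunit through which ATP is known to act on the enzyme, averaged 246 ± 3.59 RPKM in KO cells and 244 ± 14.3 RPKM in WT cells. Cox6a1 averaged 233 ± 1.73 RPKM in KO cells and 224 ± 7.60 RPKM in WT cells, and Cox7a2l, a supercomplex factor rather than a subunit of the enzyme, 208 ± 11.8 RPKM in KO cells and 205 ± 15.7 RPKM in WT cells. The matrix-side subunits Cox5b, which binds zinc, and Cox5a lay lower, at 54.8 ± 1.35 and 46.3 ± 2.28 RPKM in KO cells and 53.8 ± 2.88 and 46.5 ± 2.80 RPKM in WT cells.

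The other isoforms of complex IV subunits were low in both genotypes. Cox4i2, the isoform known from lung and from low oxygen, had 1 to 2 counts in KO libraries and 1 to 8 counts in WT libraries, or 0.0170% to 0.0332% of the RPKM of the pair with Cox4i1 in KO libraries and 0.0194% to 0.174% in WT libraries. The muscle isoforms Cox6a2 and Cox7a1 made up 0.275% to 0.617% of the pair with Cox6a1 and 2.90% to 4.68% of the pair with Cox7a2 by RPKM in KO libraries, against 0.436% to 0.709% and 3.07% to 4.33% in WT libraries. Cox6b2, a testis isoform, made up 0.328% to 0.361% of its pair in KO libraries and 0.285% to 0.564% in WT libraries. Cox8b had 0, 1 and 0 counts in KO libraries and 2, 0 and 0 in WT libraries; Cox8c had 0 counts in the KO libraries and 1 count in a single WT library; Cox7b2 had 0 counts in all 6. A count of 0 allows up to 3 counts, or 0.0951 to 0.124 CPM at these depths, which covers counting error only. Ndufa4l2, the paralog known to rise in low oxygen, had 11, 1 and 2 counts in KO libraries and 3, 2 and 1 counts in WT libraries; 1 KO library thus held most of its reads.

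In complex V, Atp5a1 and Atp5b, which form the catalytic head, were highest by summed exon length, at 173 ± 3.01 and 136 ± 1.42 RPKM in KO cells and 175 ± 7.11 and 135 ± 4.22 RPKM in WT cells. By principal transcript length Atp5b was highest, at 302 RPKM in KO cells and 298 RPKM in WT cells, and Atp5g2 stood above Atp5a1 as well. Atp5c1, the rotor shaft subunit, averaged 94.0 ± 3.83 RPKM in KO cells and 93.8 ± 6.07 RPKM in WT cells. Subunit c of the membrane rotor is encoded by 3 genes that give the same mature protein. Atp5g2 led them with 109 ± 4.62 RPKM in KO cells and 108 ± 7.39 RPKM in WT cells, ahead of Atp5g3 with 57.7 ± 3.01 RPKM in KO cells and 56.2 ± 0.568 RPKM in WT cells, and Atp5g1 with 11.1 ± 0.754 RPKM in KO cells and 10.4 ± 0.253 RPKM in WT cells. The value of Atp5g2 is uncertain, since processed pseudogenes match 88.2% of its transcript and the counting of shared reads is not given. Those pseudogenes, Gm10175 and Gm10231, held 34 to 76 and 1 to 5 counts per library. Matches covered 72.2% of Atp5l, 71.1% of Atp5h and 64.6% of Atp5f1 as well. The pseudogenes Gm10250 (of Atp5h) and Gm10221 (of Atp5l) themselves held 6 to 8 and 24 to 39 counts per library.

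The mitochondrial genes fell into separate ranges of level. mt-Co1 averaged 4564 ± 179 RPKM in KO cells and 4574 ± 148 RPKM in WT cells. mt-Nd1, a membrane arm core subunit of complex I, had 1026, 858 and 1011 RPKM in KO libraries and 1002, 1027 and 941 in WT libraries. mt-Cytb, the mitochondrial gene of complex III, had 935, 820 and 933 RPKM in KO libraries and 910, 874 and 859 RPKM in WT libraries. The proton-pumping subunits mt-Nd5, mt-Nd2 and mt-Nd4 averaged 482 ± 27.0, 393 ± 53.0 and 291 ± 29.8 RPKM in KO cells and 489 ± 43.3, 402 ± 23.6 and 287 ± 21.2 RPKM in WT cells. mt-Nd6 averaged 407 ± 39.6 RPKM in KO cells and 408 ± 39.4 RPKM in WT cells. It is the only one of the 13 read from the other strand, and because the strand setting of the counting is not given, its reads and those of transcripts running opposite to it cannot be told apart.

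The other mitochondrial genes lay lower, at 53.0 RPKM or less in every library. mt-Co2, the copper-bearing subunit that receives electrons from cytochrome c, had 53.0, 44.0 and 45.4 RPKM in KO libraries and 49.0, 49.4 and 50.9 RPKM in WT libraries. mt-Co3 averaged 33.2 ± 4.50 RPKM in KO cells and 33.8 ± 1.58 RPKM in WT cells, and mt-Atp6, the proton channel subunit of complex V, 27.9 ± 1.13 RPKM in KO cells and 27.5 ± 1.5 RPKM in WT cells. The membrane arm subunits mt-Nd3 and mt-Nd4l averaged 18.6 ± 1.45 and 14.7 ± 0.104 RPKM in KO cells and 18.1 ± 1.46 and 15.3 ± 1.90 RPKM in WT cells. These 5 genes were the ones matched over nearly their whole length by the nuclear copies named above: 99.6% of mt-Co2, 99.9% of mt-Co3, 99.6% of mt-Atp6, 99.1% of mt-Nd3 and 99.0% of mt-Nd4l. The share was 63.6% for mt-Nd4 and 31.3% for mt-Co1, and 0 for mt-Nd1, mt-Nd2, mt-Nd5, mt-Nd6 and mt-Cytb. mt-Atp8 had the lowest level, 2.17 ± 0.668 RPKM in KO cells and 1.83 ± 1.64 RPKM in WT cells. It had only 18, 9 and 12 counts in KO libraries and 17, 9 and 1 in WT libraries. No annotated gene matched it, but it lies between mt-Co2 and mt-Atp6 and shares 21.1% of its bases with mt-Atp6. Only annotated transcripts were searched. The chr1 bases between Gm10925 and Gm28661, the copies of its neighbours, were therefore not compared with it.

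**Figure D2:**
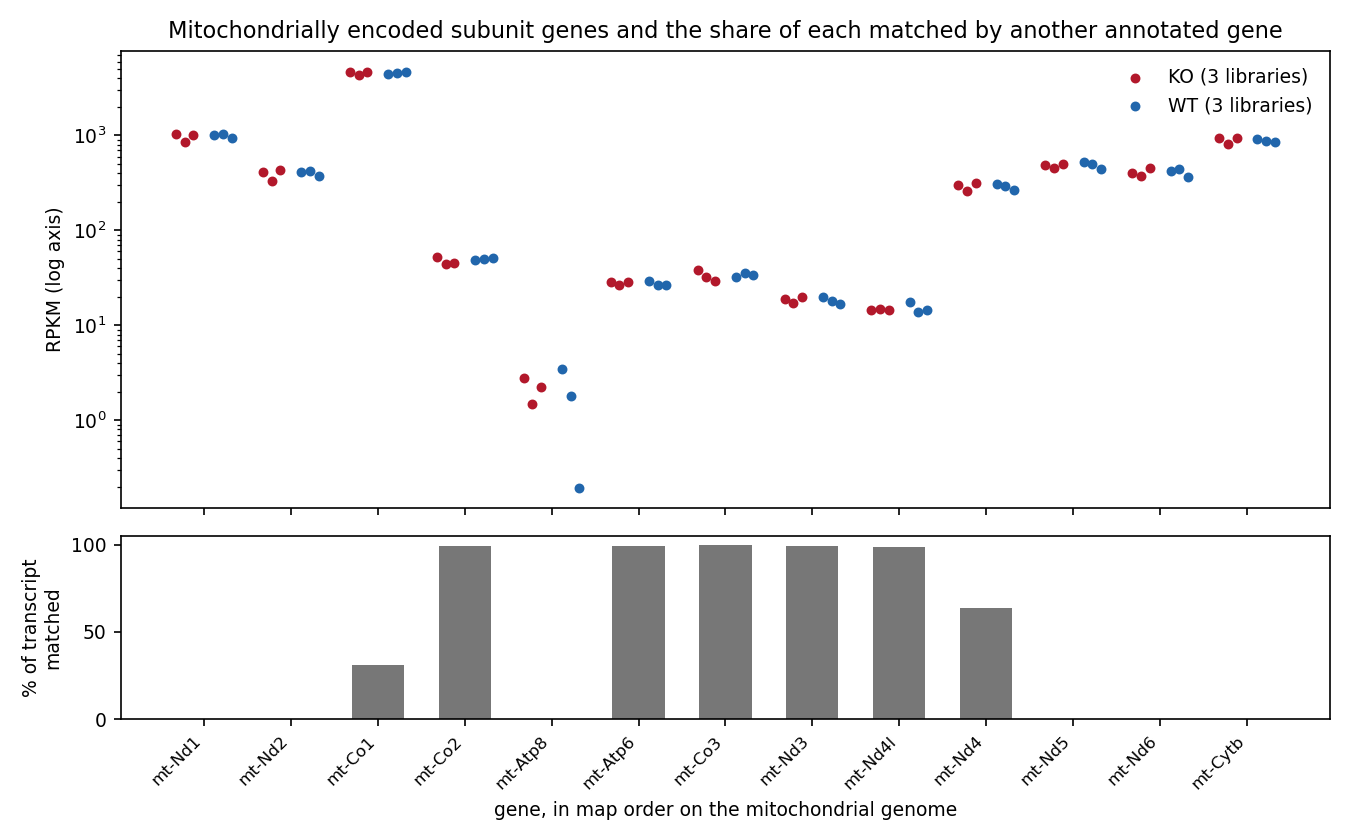
RPKM (log axis) of the 13 mitochondrial genes in each library, in map order, with KO points left of WT points, above bars for the share of each transcript matched by another annotated gene. The 5 genes matched over 99.0% to 99.9% of their length lie at 13.8 to 53.0 RPKM in all 6 libraries. Of the 6 with no match among annotated genes, 5 lie at 333 RPKM or more. The sixth, mt-Atp8, lies lowest of all, at 0.195 to 3.48 RPKM.

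The copies themselves were counted in every library. Gm28661 had 1.44 to 1.65 reads for each read of mt-Co2 in KO libraries and 1.44 to 1.67 in WT libraries. The ratio of Gm10925 to mt-Atp6 was 2.02 to 2.31 in KO libraries and 2.14 to 2.29 in WT libraries, and that of Gm28437 to mt-Co3 was 1.58 to 1.71 in KO libraries and 1.69 to 1.84 in WT libraries. Gm10222 had 1.07 to 1.45 reads for each read of mt-Nd4l in KO libraries and 1.33 to 1.86 in WT libraries, and Gm28438 had 0.366 to 0.536 for each read of mt-Nd3 in KO libraries and 0.311 to 0.476 in WT libraries. For the partly matched genes the ratios were far lower, at 0.0217 to 0.0340 for Gm28439 to mt-Nd4 in KO libraries and 0.0303 to 0.0338 in WT libraries, and at 0.00754 to 0.00975 for Gm29216 to mt-Co1 in KO libraries and 0.00905 to 0.00959 in WT libraries. How reads that align to both places were counted is not given in the sources used here, and the part of such reads in the low values was not tested. Levels of mt-Co2, mt-Co3, mt-Atp6, mt-Nd3 and mt-Nd4l relative to other genes are therefore uncertain, while the comparison of genotypes within each gene used counts made in the same way for all 6 libraries.

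Between genotypes, no subunit gene was called. In edgeR's quasi-likelihood test, 0 of the 93 tested genes had a Benjamini-Hochberg adjusted p under 0.05, against 14 of all 13588 genes (0.103%), of which 2 were higher and 12 lower in KO cells. At an unadjusted p under 0.05 there were 5 subunit genes higher and 0 lower in KO cells, 5.38% of those tested, against 326 higher and 413 lower among all genes, 5.44%. Left-out libraries moved the number higher at that level to between 2, without the second WT library, and 10, without the third. There was 1 subunit gene lower, beside 7 higher, without the first KO library. Without the first WT library there was 1 lower beside 5 higher. The DESeq2 Wald test called 0 as well, with 2 higher and 0 lower at an unadjusted p under 0.05, and limma-voom called 0 with 5 higher and 0 lower. With plain library totals in place of TMM the count at that level was 17 higher and 0 lower, and without the filter on low counts it was 8 higher and 0 lower of 97 tested.

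The precision behind this was high for most members. The 95% interval of the log2 fold change lay within ± 0.5 for 76 of 80 nuclear genes; the other 4 were Cox6a2, Cox6b2, Cox7a1 and Atp5s, all of low count. It lay within ± 0.25 for 63 of 80 nuclear genes and 10 of 13 mitochondrial genes. Of the mitochondrial genes only mt-Atp8 had an interval that passed ± 0.5, from -1.18 to 1.70. A p that misses the threshold does not show that the genotypes are equal; it is these intervals that bound the difference.

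**Figure D3:**
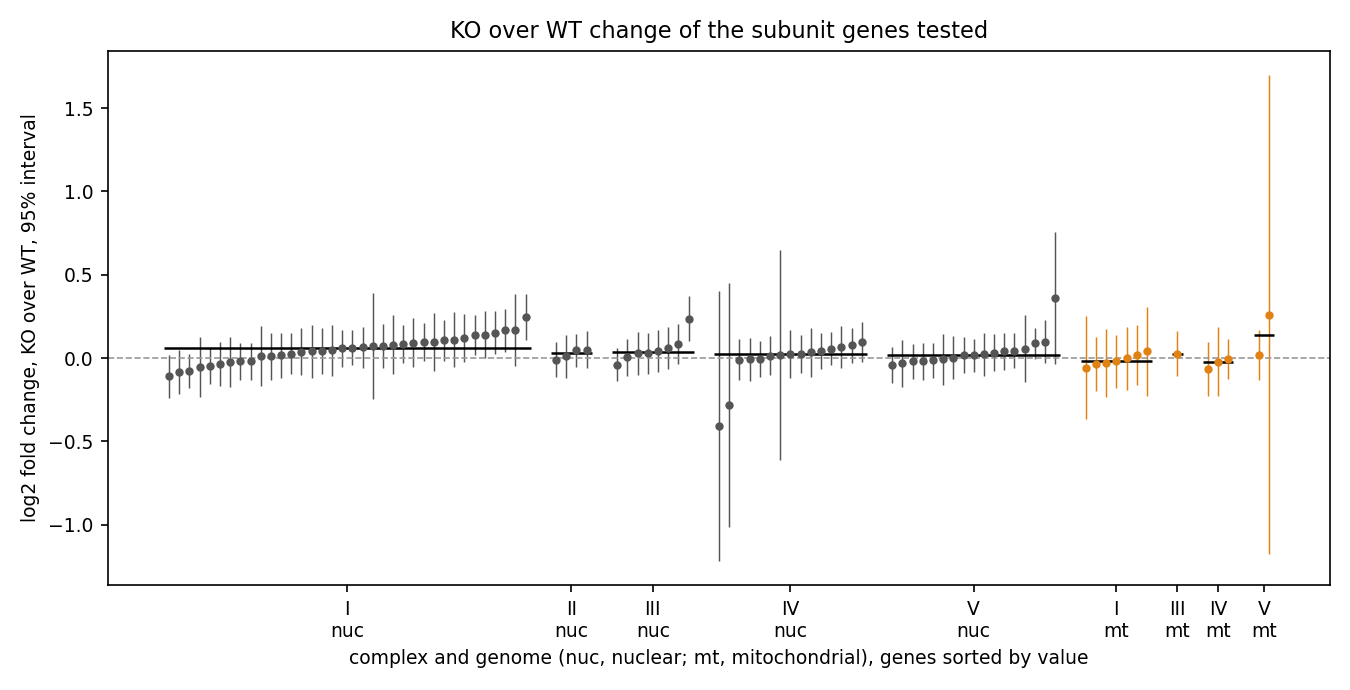
Log2 fold change, KO over WT, of the 93 subunit genes tested, sorted within complex and genome, with 95% intervals and a bar at each group's median. Nuclear complex I genes had a median of 0.06, the mitochondrial genes of complexes I and IV a median of -0.02, and the widest intervals belong to genes of low count such as mt-Atp8 and Cox6a2.

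The fitted differences of the nuclear genes leaned to the KO side by a small amount. Their median log2 fold change was 0.04, with 58 of 80 above 0, against a median of -0.00090 with 6743 of 13588 above 0 for all genes tested. The mitochondrial genes had a median of -0.0032, with 5 of 13 above 0. By complex the nuclear medians were 0.06 for complex I (27 of 36 above 0), 0.03 for complex II (3 of 4), 0.04 for complex III (7 of 8), 0.02 for complex IV (10 of 15) and 0.02 for complex V (11 of 17). Without the third KO library the count for all nuclear genes was 49 of 80, and without the first or the second WT library it was 50 of 80 each time; without that KO library complex III had 4 of 8 above 0. When each library was left out in turn, the medians ranged over 0.05 to 0.08 for complex I, 0.00052 (without the first WT library) to 0.06 for complex II, 0.02 to 0.07 for complex III, 0.0030 to 0.06 for complex IV and -0.00045 to 0.04 for complex V, lowest for complex III and complex V without the third KO library and for complex IV without the second WT library. With plain library totals in place of TMM, which moved the median of all genes to 0.04, 73 of 80 were above 0 and their median was 0.08. These medians are descriptions of genes chosen by name and carry no test.

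Groups that did not overlap were counted as another description. Every KO library lay above every WT library for 10 of 80 nuclear genes, against 5.73% of all genes tested, and every KO library lay below for 2 of 80, against 5.06%. The 10 were Ndufa1, Ndufa8, Ndufa12, Ndufb4, Ndufb6 and Ndufv3 of complex I, Uqcr11 of complex III, Cox6a1 and Cox7a2 of complex IV, and Atp5e of complex V, with log2 fold changes of 0.06 to 0.25. The 2 lower ones were the complex I genes Ndufa10 and Ndufc1, at -0.08 each, with 22.3 ± 0.338 RPKM for Ndufa10 in KO cells against 23.5 ± 0.844 RPKM in WT cells and 12.7 ± 0.356 RPKM for Ndufc1 in KO cells against 13.5 ± 0.242 RPKM in WT cells. None of the 13 mitochondrial genes had separate groups. Within complex I, 6 of 36 nuclear genes were above and 2 below.

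The 2 smallest p-values belonged to Ndufa1 and Uqcr11. Ndufa1 encodes an accessory subunit of the membrane arm that is needed for assembly of complex I; its gene (ENSMUSG00000016427) lies at chrX:37187588-37191163 on the minus strand. It had 95.8, 91.3 and 85.9 RPKM in KO libraries and 80.7, 76.7 and 73.0 RPKM in WT libraries, from 769 to 1265 counts. The lowest KO library thus stood above the highest WT library. Its log2 fold change was 0.25 ± 0.06 (SE), with an unadjusted p of 0.00274 and an edgeR adjusted p of 0.547, so that it was not called.

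Uqcr11 encodes the smallest accessory subunit of complex III (ENSMUSG00000020163, chr10:80402997-80406830, minus strand). It had 76.6, 78.2 and 76.0 RPKM in KO libraries and 70.6, 64.8 and 60.5 RPKM in WT libraries. The KO libraries lay close together above all WT libraries. The log2 fold change was 0.24 ± 0.06, with an unadjusted p of 0.00339 and an edgeR adjusted p of 0.591. A pseudogene, Gm16418, matches 38.4% of its transcript and had 0 counts in every library. Over the alternative fits the fold change of Ndufa1 ranged over 0.21 to 0.29 and that of Uqcr11 over 0.18 to 0.30, with lowest adjusted p-values of 0.0612 and 0.0531, both without the filter on low counts.

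The other 3 genes with an unadjusted p under 0.05 were accessory subunits of complex I. Ndufa12, of the matrix arm, had 15.3, 16.0 and 16.0 RPKM in KO libraries and 14.5, 13.5 and 14.2 RPKM in WT libraries, a log2 fold change of 0.17 (unadjusted p = 0.0162, edgeR adjusted p = 0.863). Ndufa8, on the intermembrane side, had 58.1, 59.2 and 54.3 RPKM in KO libraries and 53.3, 50.1 and 52.4 RPKM in WT libraries, a log2 fold change of 0.14 (unadjusted p = 0.0264, edgeR adjusted p = 0.887). Ndufv3, of the NADH-binding module, had 11.8, 12.2 and 12.3 RPKM in KO libraries and 11.0, 10.2 and 11.6 RPKM in WT libraries, a log2 fold change of 0.15 (unadjusted p = 0.0266, edgeR adjusted p = 0.887). In each of the 3 the groups were separate, by a margin smaller than the range of the WT libraries.

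**Figure D4:**
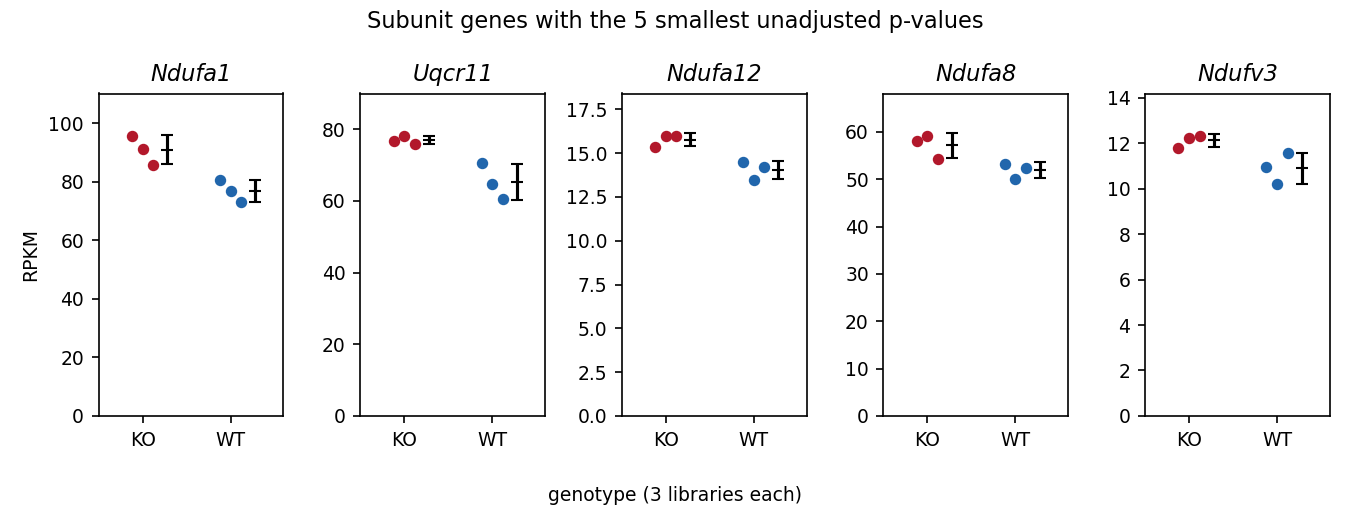
RPKM in each library (points, KO left of WT) with mean ± SD of 3 libraries for the 5 subunit genes with the smallest unadjusted p-values; each axis starts at 0. The groups do not overlap in any of the 5, and the largest log2 fold change, that of Ndufa1, was 0.25.

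In the other complexes the smallest p-values belonged to members whose change was not called either. For complex II these were Sdhb, with a log2 fold change of 0.05 ± 0.05, and Sdhc, with 0.05 ± 0.04, both with an edgeR adjusted p of 0.971. For complex III the next after Uqcr11 were Uqcrq at 0.08 ± 0.05 and Uqcrc2 at 0.06 ± 0.06. For complex IV they were Cox7a2 at 0.10 ± 0.05, Cox7b at 0.08 ± 0.05 and Cox6a1 at 0.06 ± 0.04. For complex V they were Atp5e, a small subunit of the central stalk, at 0.09 ± 0.04, Atp5s, a coupling factor that is no part of the enzyme, at 0.36 ± 0.18, and Atp5g1 at 0.10 ± 0.06. Atp5s had the largest positive fitted value of the nuclear genes, from 2.33, 1.71 and 2.05 RPKM in KO libraries and 1.74, 1.69 and 1.33 RPKM in WT libraries, which overlap. Cox6a2 had the lowest, -0.41 ± 0.36, from 13 to 31 counts per library.

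The mitochondrial genes showed no separation by genotype. Leaving out mt-Atp8, whose fitted value of 0.26 ± 0.64 rests on 1 to 18 counts per library, their log2 fold changes ran from -0.07 for mt-Co2 to 0.04 for mt-Nd3, which was -0.01 without KO library 3 and -0.0098 without WT library 3. The smallest unadjusted p among them was 0.381, for mt-Co2, whose SE was 0.07 and edgeR adjusted p 0.973. The direction for the 7 mitochondrial genes of complex I turned on single libraries, with a median of 0.06 and 6 of 7 above 0 without KO library 2, and a median of -0.08 and 0 of 7 above 0 without WT library 3. The 6 genes with no match among other annotated genes had a median of -0.01 (-0.02 without mt-Atp8). The 5 genes matched over nearly their whole length had a median of -0.02. The median coefficient of variation between libraries was 9.64% in KO cells and 5.87% in WT cells for the mitochondrial genes, 4.10% in KO cells and 4.98% in WT cells for the nuclear genes, and 6.95% in KO cells and 6.94% in WT cells for all genes tested.

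**Figure D5:**
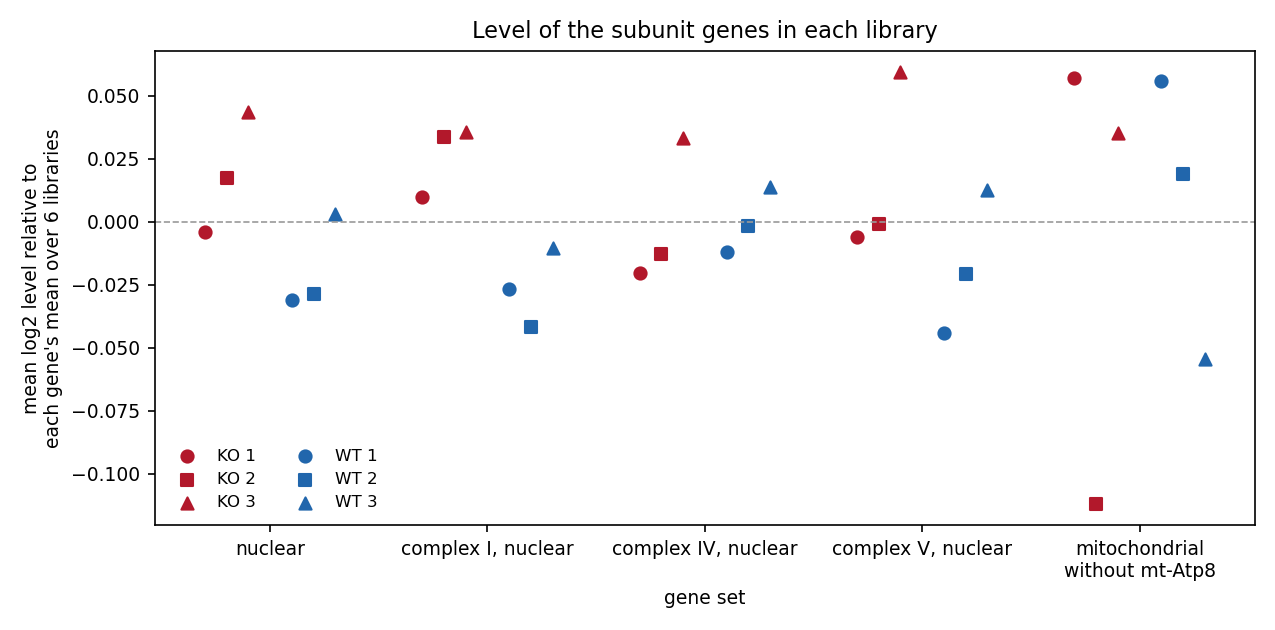
Mean log2 level, relative to each gene's mean over 6 libraries, of nuclear members, of the nuclear members of complexes I, IV and V, and of the mitochondrial members without mt-Atp8, with the 3 KO libraries left of the 3 WT libraries. For complex I the KO libraries lie at 0.0098 to 0.036 and the WT libraries at -0.042 to -0.010; the mitochondrial mean is lowest in KO library 2, at -0.11, and next lowest in WT library 3, at -0.05.

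The libraries did not divide evenly within the genotypes. Relative to each gene's mean, the nuclear members averaged -0.0041, 0.017 and 0.044 on the log2 scale in KO libraries 1 to 3 and -0.031, -0.029 and 0.0029 in WT libraries 1 to 3, so that WT library 3 lay above KO library 1. KO library 3 was the highest of the 6 for 27 of 80 nuclear genes and WT library 3 for 22, against 15.3% and 18.4% of all genes tested. WT library 1 was the lowest for 29 and WT library 2 for 19, against 16.4% and 15.7%. KO library 3 was the lowest for 0 of the 80, against 15.1% of all genes tested. The library means of the nuclear complex I genes were separate by genotype on the TMM scale, at 0.0098, 0.034 and 0.036 in KO libraries and -0.027, -0.042 and -0.010 in WT libraries. Those of complexes II, III, IV and V overlapped. The summed CPM of the complex I genes, in which genes of high count weigh most, overlapped as well, at 1545, 1581 and 1584 in KO libraries and 1516, 1504 and 1553 in WT libraries. For the mitochondrial genes KO library 2 was the lowest of the 6 for 6 of 13, against 18.6% of all genes tested.

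The shares of ribosomal RNA, of neutrophil markers and of mast cell and basophil markers were separate by genotype in the same libraries. Those of the other cell types given here overlapped. Annotated ribosomal RNA genes took 0.112%, 0.0994% and 0.107% of counts in KO libraries and 0.231%, 0.171% and 0.166% in WT libraries. The 8 neutrophil markers together took 0.0727%, 0.0714% and 0.0750% in KO libraries and 0.0510%, 0.0396% and 0.0575% in WT libraries, with S100a8 and S100a9 at log2 fold changes of 0.70 ± 0.10 and 0.61 ± 0.11 (edgeR adjusted p = 0.0521 and 0.152). The 8 did not move together. Fitted values were above 0 for 6 and below 0 for 2, the lowest at -0.76. At an unadjusted edgeR p under 0.05, 4 were higher and 1 was lower in KO cells. All 5 tested of 6 mast cell and basophil markers and all 4 tested of 8 erythroid and megakaryocyte markers had fitted values below 0, with medians of -0.98 and -0.53, and so had 5 of 6 dendritic cell markers and the 4 tested of 6 lymphoid markers. The summed share of the mast cell and basophil markers was 0.00062% to 0.00140% in KO libraries and 0.00142% to 0.0023% in WT libraries, separate by a narrow margin. That of the erythroid and megakaryocyte markers was 0.0067% to 0.010% in KO libraries and 0.0087% to 0.015% in WT libraries. The share was 0.0023% to 0.0035% in KO libraries and 0.0033% to 0.0041% in WT libraries for dendritic cells, and 0.0083% to 0.0113% in KO libraries and 0.0105% to 0.0165% in WT libraries for lymphoid cells. Hbb-bs had 0 counts in all libraries. The 4 stromal markers took 0.0014% to 0.0029% in KO libraries and 0.00087% to 0.0036% in WT libraries. Of the 2 annotated ribosomal RNA genes that passed the filter 1 was called lower in KO cells (edgeR adjusted p = 0.0302). None of the cell type markers was called. The part of these measures in the small differences of the subunit genes was not tested. In a bulk culture, fewer cells of a type and less RNA per cell cannot be told apart.

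The genes that build, regulate and feed the complexes were taken from lists chosen by name. None of the tested members of any of these lists was called. Of 49 tested assembly factors 27 were above 0, with a median log2 fold change of 0.01; the smallest p-values were those of Coa5, a complex IV assembly factor, at -0.14 ± 0.05, and Ndufaf3, a complex I assembly factor, at 0.23 ± 0.10. Of 30 genes of mitochondrial transcription and genome maintenance 20 were above 0, with a median of 0.03. In that list every KO library lay above every WT library for 8 genes and below for 1, against 5.73% and 5.06% of all genes tested. The same counts were 9 and 4 for 77 mitochondrial ribosomal protein genes, 8 and 2 for 82 cytosolic ones, and 3 and 5 for 49 assembly factors. They were 0 and 2 for 16 citric acid cycle genes, 1 and 0 for 11 carrier and uncoupling genes, and 0 and 0 for 11 biogenesis regulators. Hsd17b10, a subunit of mitochondrial RNase P as well as a dehydrogenase, had 44.6 ± 1.38 CPM in KO cells and 39.1 ± 0.854 CPM in WT cells, a log2 fold change of 0.19 ± 0.05 (unadjusted p = 0.00372, edgeR adjusted p = 0.631), and Top1mt, the mitochondrial topoisomerase, had 0.46 ± 0.16 from 61 to 134 counts per library.

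Of 11 tested regulators of mitochondrial biogenesis 10 were above 0, with a median of 0.02 and a range of -0.09 to 0.10, and the smallest p-values were those of Perm1 at 0.10 ± 0.13 and Esrra, the receptor ERR alpha, at 0.03 ± 0.05. The factors whose motifs were searched above were present in both genotypes, with 26.4 ± 0.891 CPM of Nrf1 in KO cells and 26.0 ± 0.920 CPM in WT cells, 46.2 ± 1.42 CPM of Gabpa in KO cells and 46.0 ± 1.1 CPM in WT cells, and 118 ± 1.43 CPM of Yy1 in KO cells and 117 ± 2.12 CPM in WT cells. Gabpa shares exon bases with Atp5j on the opposite strand, so the reads of this pair cannot be told apart there. Ppargc1a, the coactivator known to drive mitochondrial biogenesis in muscle and brown fat, did not pass the filter, with 0 to 4 counts per library, while its relative Ppargc1b had 5.92 ± 0.704 CPM in KO cells and 6.31 ± 1.61 CPM in WT cells. Its log2 fold change of -0.09 ± 0.18 was 0.14 without WT library 3.

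Of 16 citric acid cycle genes 9 were above 0 (median 0.02), with Dlat at -0.14 ± 0.06 and Idh3g at 0.09 ± 0.05 having the smallest p-values. Of 11 tested carrier and uncoupling genes 6 were above 0 (median 0.02), with the adenine nucleotide carrier Slc25a4 at 0.09 ± 0.06 and the porin Vdac1 at 0.05 ± 0.04. Of 77 tested mitochondrial ribosomal protein genes 47 were above 0 (median 0.01), led by Mrpl58 at 0.23 ± 0.07 and Mrpl14 at 0.16 ± 0.06. Of 82 tested cytosolic ribosomal protein genes 48 were above 0 (median 0.0088), with Rpl22l1 at 0.18 ± 0.05 and Rpl36a at -0.14 ± 0.05. The share of genes above 0 was 72.5% for the nuclear subunit genes, 61.0% for the mitochondrial ribosomal proteins, 58.5% for the cytosolic ribosomal proteins, 55.1% for the assembly factors and 49.6% for all genes tested, and these shares were not tested against each other.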

How the data were processed

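RNA was sequenced from 3 Tmem175 knockout and 3 wild type wells with a SMARTer mRNA kit, per the labels' protocols. The authors' tools were HISAT2 and featureCounts with GRCm38, per the submitters' processing notes, and the deposited values are raw counts per gene. Versions, annotation release, strand setting and handling of multi-mapping reads: not given in the sources used here.

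Symbols, coordinates and exon lengths came from GENCODE M21 (GRCm38); 55240 of 55421 IDs matched. With TMM scaling and the filterByExpr filter, KO was compared with WT by edgeR's two-sided quasi-likelihood test (edgeR 4.0.16, R 4.3.3), genotype being the only term, with Benjamini-Hochberg adjustment over all 13588 genes and calls under 0.05. Standard errors are the log2 fold change over the square root of F. The fit was tested on simulated data. Library totals of 24179548 to 31542741 counts gave a common biological coefficient of variation of 7.44%, and libraries of a group differed beyond sampling noise. The APPRIS principal transcript of each member was searched against all annotated transcripts with BLAST 2.17.0, at 98% identity or more over at least 75 bases.

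The members, gene lists and tests were chosen with earlier results of these data known. The rule for named genes took all mitochondrial members; in each complex the 4 nuclear members of highest RPKM and the 3 of smallest p; isoform pairs; catalytic and cofactor-binding subunits; Cyc1, Cycs, Tmem175 and Lyz2; and the 2 members of smallest p in each other pathway list. 1 gene that this rule takes is not reported here. Members named for separate groups, for the end of a range or for a matching pseudogene, and Nrf1, Gabpa, Yy1, Ppargc1a, Ppargc1b, Hbb-bs, S100a8 and S100a9, were chosen after their values were seen. Alternatives were other scalings, DESeq2 1.42.0, limma-voom 3.58.1, bias-corrected dispersions, other filters, a replicate block, holoenzyme subunits with Cyc1, leaving out each library, and, added after seeing the data, principal transcript lengths.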

Additional observations from a re-analysis of the deposited data

How the results depend on the processing

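No subunit gene was called in any of the fits tried, and the lowest adjusted p of a member over all of them was 0.0531, for Uqcr11 without the filter on low counts. The median log2 fold change of the nuclear members was 0.0362 as reported and 0.0797 with plain library totals, a shift beyond the replicate SD of 0.0216; the median of all genes was then 0.04, against -0.00090 as reported. The number of genes called over the whole table was 14 as reported, 40 with the DESeq2 Wald test, 151 without a filter beyond a count above 0, 5 with a filter at a mean of 10 CPM, and 4 to 12 when each library was left out in turn. The other 70 alternative values of the main results, among them those of the mitochondrial median and of the list restricted to holoenzyme subunits, stayed within 1.5 times (counts) or 1 replicate SD (medians). For the mitochondrial median of -0.0032 that SD was much larger than the median itself, so staying within it does not fix its direction. Of the fold changes printed for single genes, that of mt-Atp8 reversed to -0.28 without WT replicate 3, which holds 1 count of it, and ranged from there to 1.11 when other libraries were left out. That of mt-Nd3 ranged over -0.01 to 0.11 with a library left out, reversing to -0.010 without KO replicate 3 and -0.0098 without WT replicate 3, and that of Ppargc1b over -0.21 to 0.14, reversing to 0.14 without WT replicate 3; the cause was not tested. S100a8 and S100a9, which are not subunit genes, passed the threshold in 10 alternative values, counted over both genes together. The other 609 alternative values of the single genes checked kept direction and call. Over all 93 tested members, 49 changed sign in at least 1 alternative and 23 under another scaling; among those 23 the reported log2 fold change was at most 0.043 in size.

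Deviations of same-numbered libraries were correlated at 0.108, -0.160 and 0.047, and those of differently numbered libraries at -0.227 to 0.208. Deviations from the mean of 3 libraries depend on each other, so these values cannot settle whether the replicate numbers pair the samples. With the replicate block 17 genes were called over the whole table, 3 higher and 14 lower in KO cells, and 0 of them were members. With 3 wells a group, members of low count have intervals too wide to bound a modest change. How shared reads were counted limits the levels of mitochondrial genes with nuclear copies and of members with pseudogene matches.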
